A study of Rattus norvegicus with 25 samples.

Results

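The genes described here encode 3 subunits of the NMDA receptor: Grin1 (ENSRNOG00000011726), Grin2a (ENSRNOG00000033942) and Grin2b (ENSRNOG00000008766). They were taken by Ensembl gene ID from a table of 29516 gene IDs, and all 3 IDs were present and passed the filter on low values (at least 1 FPKM in at least 5 of 25 libraries), which left 14128 gene IDs for testing. The symbols are those of the selection rule, because the table lists IDs without names. The values come from RNA sequencing of ribosomal RNA-depleted total RNA from the prefrontal cortex of wild-type Wistar rats, an outbred laboratory strain, and the study's design text specifies the medial part of this cortex. Tissue was taken at postnatal day 8, 14, 21, 35 or 70 (P8, P14, P21, P35 and P70) with 5 libraries per age, and no treatment is named for any group. The comparison asks how transcript levels change with age. No label states that the libraries of an age were made from different animals, so each p-value reflects the spread among these samples, which may be technical.

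The NMDA receptor is a glutamate-gated ion channel that passes calcium and opens only when glutamate and a co-agonist, glycine or D-serine, are bound and the membrane is depolarised, which relieves a block by magnesium. Each receptor contains obligatory GluN1 subunits, the product of Grin1, together with GluN2 subunits, which bind glutamate. GluN2B, the product of Grin2b, prevails in the early forebrain, and GluN2A, the product of Grin2a, is added during postnatal life. Channels with GluN2A deactivate faster than those with GluN2B, and the shift between them in the cortex is a standard marker of the maturation of excitatory synapses.

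Levels are given in FPKM, sequenced fragments divided by transcript length and by library size, which allows genes to be compared per length. The depth of the libraries, read from the size of the step that 1 read makes among sparse gene IDs, ran from 0.386 (P21 replicate 5) to 1.31 (P21 replicate 4) of the median library. The values of the 3 genes could not be resolved into whole reads, so the counting error behind each of them is unknown and no interval for it is given. In this bulk tissue, a lower level because fewer cells of a type were present and a lower level because each cell held less RNA cannot be told apart. Markers of neurons and glia were not analysed here, since the IDs could not be matched to names.

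Grin1, the subunit that every NMDA receptor needs, rose 1.86-fold between P8 and P14 and showed no further change that passed the test. In the 5 P8 libraries it stood at 16.7, 13.7, 18.3, 12.6 and 15.7 FPKM (replicates 1 to 5). At P14 it stood at 31.7, 32.7, 22.3, 31.2 and 27.6 FPKM. All P14 libraries were above all P8 libraries, although P14 replicate 3 lay well below the other 4 of its age. The mean rose from 15.4 ± 2.30 to 29.1 ± 4.26 FPKM (SD, n = 5), a log2 change of 0.90 ± 0.11 (SE, limma, adjusted p = 9.74e-07). A rise was called at 13.6% of all gene IDs tested in this step, and rising libraries without overlap were found at 9.51%.

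Later values of Grin1 were 33.7, 33.3, 34.9, 33.8 and 33.1 FPKM at P21, and 30.7, 29.7, 29.5, 30.8 and 32.2 FPKM at P35. At P70 they were 28.4, 33.9, 23.7, 29.7 and 32.7 FPKM. The P21 libraries were the highest as a group and very close together, with a coefficient of variation of 2.13%, against 3.56% at P35 and 13.6% to 14.9% at the other 3 ages. They did not overlap the P14 libraries, as 3.79% of gene IDs rose without overlap in that step, nor the P35 libraries, as 2.46% fell without overlap, but neither step passed the test. The change from P14 to P21 was 0.22 ± 0.11 (SE, limma, adjusted p = 0.161), and that from P21 to P35 was -0.14 ± 0.11 (SE, limma, adjusted p = 0.676). After median-of-ratios scaling the rise from P14 to P21 was 0.33 and passed (limma, adjusted p = 0.0203), and after quantile normalization it was 0.34 (adjusted p = 0.0304). With FPKM totals made equal between libraries it was -0.09 (adjusted p = 0.853). That scaling raised the SE to 0.328 and lowered the gene IDs called in this step from 2458 to 154.

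In order of mean level, Grin1 ran P8, P14, P70, P35 and P21, from 15.4 to 33.8 FPKM. P8 differed from its neighbour P14, and P14 from P70, P70 from P35 and P35 from P21 did not pass the test. From P8 to P70 the change was 0.93 ± 0.11 log2 units (SE, limma, adjusted p = 1.2e-07), or 1.90-fold, and the libraries of these ages did not overlap, as was the case for rises at 15.5% of gene IDs. The change reached by P14 was 96.8% of this, and 89.4% to 107% when 1 library was left out.

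Grin2a, which encodes the GluN2 subunit that is added during postnatal life, showed the largest change of the 3 genes. It was at 3.90, 3.75, 5.47, 4.50 and 4.18 FPKM in the P8 libraries. At P14 it was at 17.1, 19.9, 17.3, 17.3 and 17.4 FPKM. The lowest P14 library was thus far above the highest P8 library, and 4 of the 5 P14 libraries lay within 0.266 FPKM of each other. The mean rose from 4.36 ± 0.685 to 17.8 ± 1.17 FPKM (SD, n = 5), a log2 change of 1.92 ± 0.10 (SE, limma, adjusted p = 3.09e-12). Among all 14128 gene IDs, only 14 had a larger estimated rise in this step.

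Grin2a rose again between P14 and P21. The P21 libraries held 20.3, 24.3, 25.9, 24.2 and 26.02 FPKM, all above the highest P14 library. The log2 change was 0.43 ± 0.10 (SE, limma, adjusted p = 0.00469), in a step where 5.17% of gene IDs were called as rises. This second rise was 0.11 and did not pass with FPKM totals made equal (limma, adjusted p = 0.833), a scaling that raised the SE to 0.342. It passed under each of the other alternatives tried, at 0.40 to 0.55.

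No further change of Grin2a was detected after P21. It held 24.0, 25.9, 27.5, 19.6 and 24.4 FPKM at P35, and 21.6, 27.4, 21.4, 25.2 and 24.0 FPKM at P70. The libraries of P21, P35 and P70 overlapped throughout. The difference between P70 and P21 was -0.01 log2 units, with a 95% interval of -0.22 to 0.19 (limma). In order of mean level Grin2a ran P8, P14, P70, P21 and P35; P14 differed from P8 and from P70 (0.41 ± 0.10, SE, limma, adjusted p = 0.00261, in a comparison with rises called at 11.2% of gene IDs; lost with FPKM totals made equal, at 0.285, adjusted p = 0.718), while P70, P21 and P35 did not differ beyond their spread. Over the whole span it rose 5.04-fold (log2 change 2.33 ± 0.10 SE, limma, adjusted p = 8.58e-15), and P14 had 82.3% of this log2 change and P21 101%. Fold changes of single genes are given on the scale of the fit, which adds a constant to each FPKM value. For Grin2a this understates the change from the low P8 level (means 4.36 FPKM at P8 and 23.9 FPKM at P70). In that comparison 19.9% of gene IDs were called as rises, and 70 gene IDs had a larger estimated rise.

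**Figure D1:**
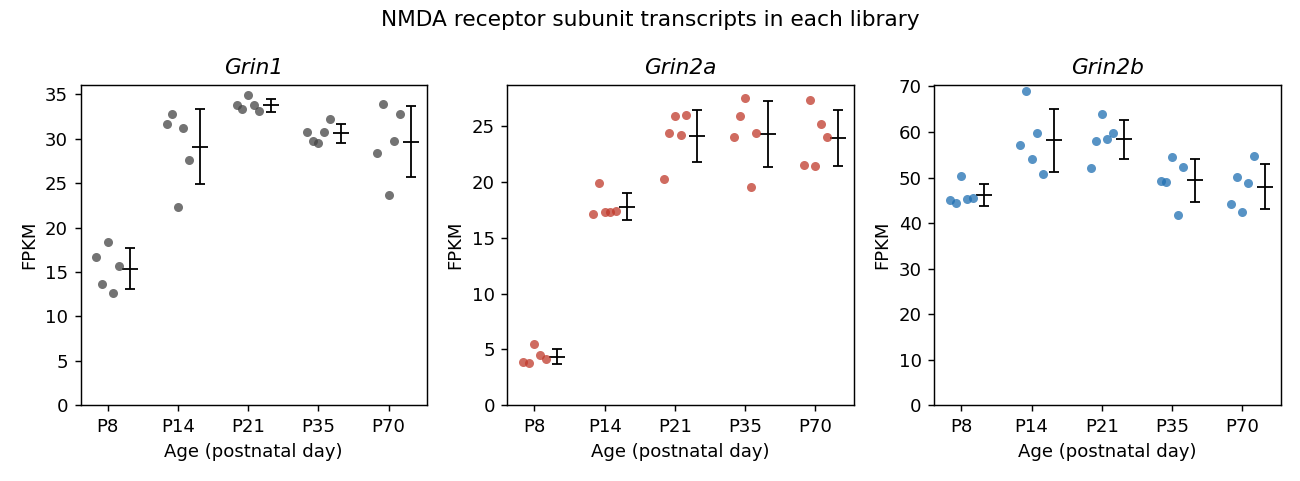
Level of each subunit transcript in FPKM (vertical axes from 0, with a different scale in each panel) in the 5 libraries of each age (points, in order of replicate), with the mean and SD beside them. Grin1 and Grin2a at P8 lie below every later library, and the Grin2b libraries of P8 lie within the span of those of P35 and of P70.

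Grin2b, which encodes the subunit that prevails in young cortex, was the most abundant of the 3 transcripts in each of the 25 libraries and changed least. The P8 libraries held 45.2, 44.5, 50.3, 45.3 and 45.5 FPKM. The P14 libraries held 57.1, 69.0, 54.1, 59.7 and 50.8 FPKM, all of them above the highest at P8, P14 replicate 5 by a small margin. In this step 13.6% of all gene IDs tested were called as rises and 9.51% rose without overlap. The mean of Grin2b went from 46.1 ± 2.36 to 58.1 ± 6.91 FPKM (SD, n = 5), a log2 change of 0.32 ± 0.09 (SE, limma, adjusted p = 0.00954). That call was lost when the first number in the sample titles entered as a random block (0.30 ± 0.11 SE, adjusted p = 0.0643) and with FPKM totals made equal (0.58 ± 0.35 SE, adjusted p = 0.477).

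At P21 Grin2b stood at 52.0, 58.0, 63.9, 58.4 and 59.8 FPKM, again above every P8 library. The change from P8 to P21 was 0.34 ± 0.09 log2 units (SE, limma, adjusted p = 0.00379), when 18.3% of gene IDs were called as rises and 14.9% rose without overlap. It passed under the title-number block (0.33, adjusted p = 0.0184) and was lost with FPKM totals made equal (0.28, adjusted p = 0.661). Between P14 and P21 Grin2b differed by 0.01 log2 units (95% interval -0.18 to 0.20, limma).

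At the later ages the mean of Grin2b was nearer to that of P8, at 49.4 ± 4.79 FPKM for P35 and 48.0 ± 4.88 FPKM for P70 (SD, n = 5). It held 49.2, 49.1, 54.5, 41.8 and 52.3 FPKM at P35, and 44.1, 50.0, 42.4, 48.8 and 54.7 FPKM at P70. Both sets overlapped with P8, and also with P14 and P21. The decline was not firm: from P21 to P35 the log2 change was -0.24 ± 0.09 (SE, limma, adjusted p = 0.234) and from P21 to P70 -0.28 ± 0.09 (adjusted p = 0.07), which passed only without P70 replicate 5 (-0.33, adjusted p = 0.0388). From P14 to P70 it was -0.27 ± 0.09 (adjusted p = 0.0239), when 23.5% of gene IDs were called as falls. This call was lost after median-of-ratios scaling (-0.14, adjusted p = 0.304), after quantile normalization (-0.09, adjusted p = 0.656), with the title-number block (-0.24, adjusted p = 0.126), with FPKM totals made equal (-0.40, adjusted p = 0.6), with the 10 libraries of these ages alone (-0.27, adjusted p = 0.102), and without P14 replicate 2 (-0.21), P70 replicate 1 (-0.24) or P70 replicate 3 (-0.23).

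P70 and P8 differed at Grin2b by 0.05 log2 units, with a 95% interval of -0.14 to 0.24 (limma, adjusted p = 0.657). In order of mean level Grin2b ran P8, P70, P35, P14 and P21, from 46.1 to 58.4 FPKM, and no pair of neighbours in that order passed the test. The nearest was P14 above P35 (-0.23 from P14 to P35, limma, adjusted p = 0.0608), which passed without P14 replicate 5 (adjusted p = 0.0302) or without P35 replicate 3 (adjusted p = 0.0432). Under median-of-ratios scaling the same P8 to P70 difference was 0.22 (limma, adjusted p = 0.0753). The median change of all gene IDs from P8 to P70 was -0.16 log2 units as deposited and -0.01 after that scaling, so relative to the median gene ID Grin2b was 0.21 log2 units higher at P70 with the values as deposited. By the F-test over the 5 ages, each of the 3 genes varied with age (limma, adjusted p = 2.58e-08 for Grin1, 6.96e-15 for Grin2a and 0.00483 for Grin2b), as did 55.5% of all gene IDs. In the last 2 steps the level of none of the 3 genes was called: from P21 to P35, 1.62% of all gene IDs were called, and from P35 to P70 0.12%. At an unadjusted p under 0.05 (limma) there was 1 of the 3 genes from P21 to P35, Grin2b, against 12.2% of all gene IDs, and 0 of 3 from P35 to P70, against 4.69%.

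**Figure D2:**
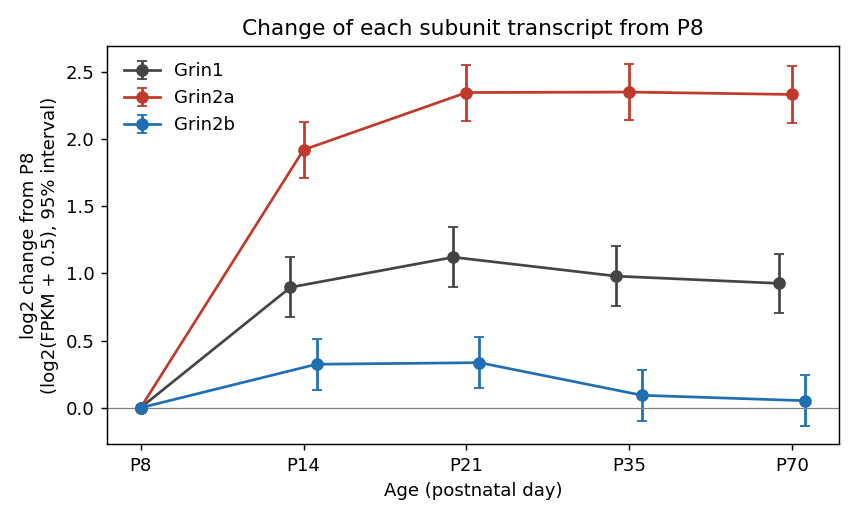
Log2 change of each gene from P8 (vertical axis, on the log2(FPKM + 0.5) scale) at P14, P21, P35 and P70, with 95% intervals from limma. The ages are evenly spaced on the horizontal axis and not to scale. Grin2a reaches 1.92 at P14 and 2.35 at P21, Grin1 0.90 and 1.12, and Grin2b 0.32 and 0.34.

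Against the whole table, the 3 genes sat at different places in the range of changes. From P8 to P14, 0.0991% of gene IDs had a larger estimated rise than Grin2a, 2.56% than Grin1 and 15.9% than Grin2b. From P8 to P70 these shares were 0.495%, 6.80% and 35.3%. The order of the 3 genes was the same in both comparisons, which share their P8 libraries. Their place in the range of levels moved as well: at P8 the mean level of Grin2a was above that of 36.9% of the tested gene IDs, Grin1 above 73.9% and Grin2b above 91.9%. At P70 these shares were 85.3%, 88.6% and 93.4%.

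**Figure D3:**
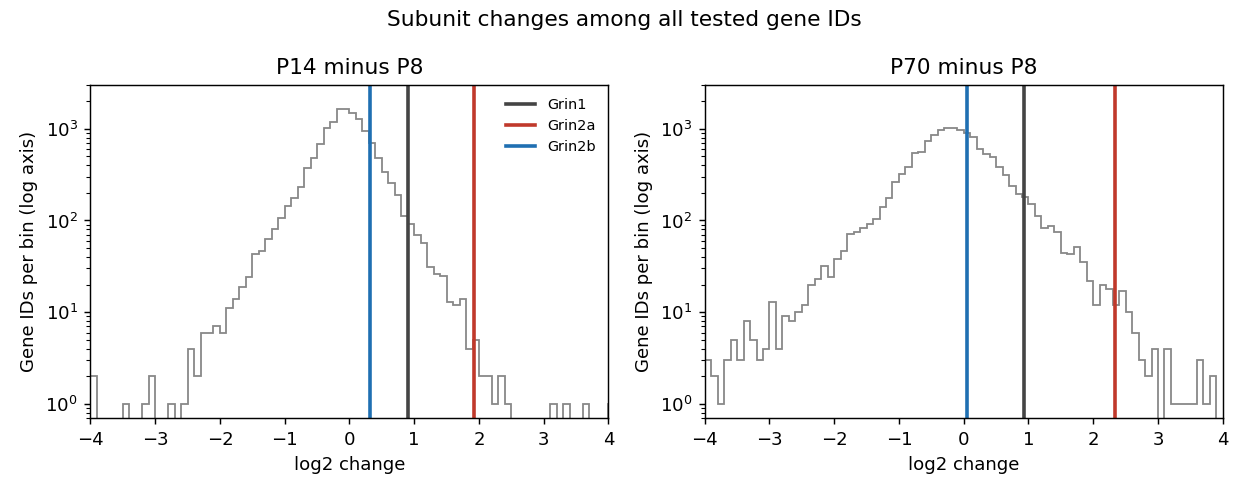
Number of gene IDs (log axis, grey outline, bins of 0.1) by log2 change from P8 to P14 and from P8 to P70, with the 3 subunit genes as vertical lines; gene IDs beyond 4 in either direction are not drawn. Grin2a lies in the upper tail in both panels, at 1.92 and 2.33, and Grin2b lies near the middle at P70, at 0.05.

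The ratio of Grin2a to Grin2b within a library does not depend on how libraries are scaled, and its change is the direct test of whether both genes changed by the same factor. The ratio was 0.0864, 0.0842, 0.109, 0.0994 and 0.0919 in the P8 libraries. At P14 it was 0.300, 0.288, 0.320, 0.289 and 0.342. At P21 it was 0.390, 0.420, 0.405, 0.414 and 0.435. These 3 ages formed separate bands with no overlap.

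At P35 the ratio was 0.488, 0.527, 0.505, 0.468 and 0.466, and at P70 it was 0.488, 0.547, 0.505, 0.517 and 0.439. The lowest P35 library was above the highest P21 library, and the P70 libraries spanned the whole range of P35. All 9 pairs of ages other than P35 and P70 differed, each at the smallest p that 5 against 5 libraries allow (exact two-sided permutation test on the mean log2 ratio, p = 0.00794, adjusted p = 0.0132 over 30 tests of 3 ratios and 10 pairs of ages).

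From P8 to P14 the mean ratio went from 0.0942 ± 0.0101 to 0.308 ± 0.0230 (SD, n = 5), which is 3.28-fold or 1.71 ± 0.08 log2 units (SE). From P14 to P21 it went to 0.413 ± 0.0167, a further 1.34-fold (0.42 ± 0.05, SE). From P21 to P35 it went to 0.491 ± 0.0259, or 1.19-fold (0.25 ± 0.04, SE). This last step was called, while neither gene passed the limma test alone. Grin2a differed by 0.00 and Grin2b by -0.24 log2 units between these ages. The thresholds are unlike, because the ratio was adjusted over the ratio tests only and the genes over all gene IDs tested. Before adjustment, p in this step was 0.0141 for Grin2b and 0.972 for Grin2a (limma). From P35 to P70 the ratio differed by 0.02 ± 0.06 log2 units (SE; exact permutation test, p = 0.746, adjusted p = 0.772).

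Over the whole span the ratio rose 5.31-fold, and P14 had 71.1% of the log2 change, P21 88.7% and P35 99.1%. The ratios were taken without the constant added in the fit, so this factor is not on the scale of the fold changes of single genes. With 1 library left out, the share at P21 ran from 87.1% to 90.0%. Expressed as the part of Grin2a in the sum of both transcripts, the means over the 5 ages in turn were 8.60% ± 0.837, 23.5% ± 1.33, 29.2% ± 0.839, 32.9% ± 1.16 and 33.3% ± 1.80 (SD, n = 5). Grin2b thus remained the larger part in each library, with Grin2a at most 35.3% of the sum (P70 replicate 2). The level of this share depends on the transcript models that the authors used for each gene, and the sources used here do not give their lengths.

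**Figure D4:**
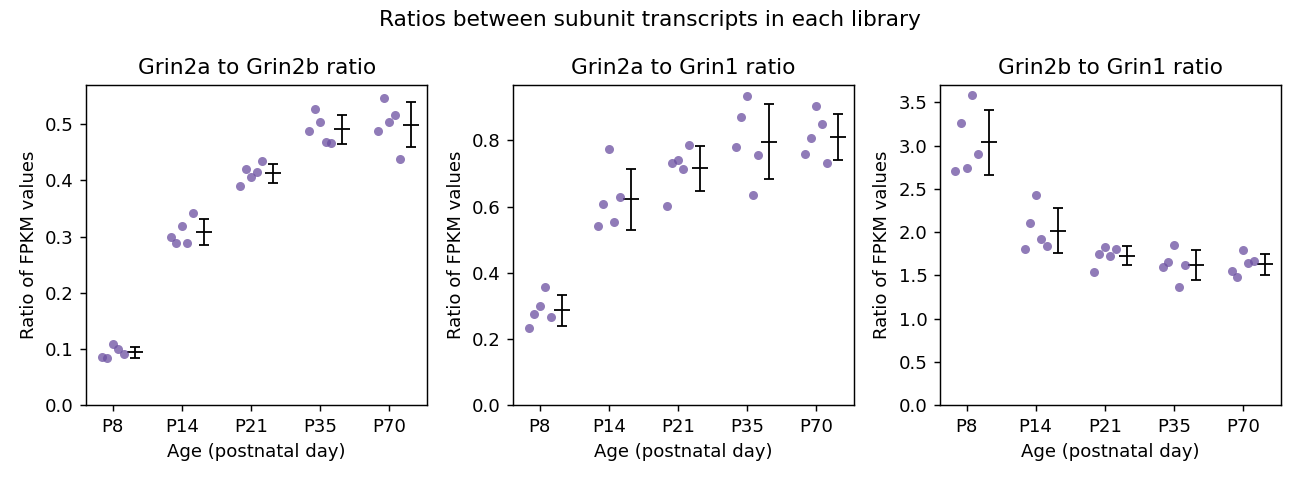
Ratios between the FPKM values of 2 subunit transcripts within each library (points, in order of replicate; vertical axes from 0), with the mean and SD of the 5 libraries of each age. The Grin2a to Grin2b ratio forms separate bands at P8, P14 and P21, and overlapping bands at P35 and P70.

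The libraries carry a first number in their titles that several libraries of an age share, and no number occurs at more than 1 age. The sources used here do not say what this number stands for, and ages cannot be compared within a number. As a random block in limma it gave a correlation of 0.33 between libraries that share it, as a consensus over gene IDs. The permutation tests of the ratios took no account of the number, so their p-values may be too small. Averaged within each number (3 numbers per age), the Grin2a to Grin2b ratio was 0.0853 to 0.109 for P8 and 0.299 to 0.342 for P14. It was 0.405 to 0.435 for P21, 0.466 to 0.507 for P35 and 0.439 to 0.517 for P70. The libraries of P8, P14, P21 and P35 did not overlap, so averages of them cannot overlap either and add nothing to that separation. With 3 averages on each side an exact test could not reach the threshold and none was run.

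The ratio of each GluN2 transcript to Grin1 compares the glutamate-binding subunits with the obligatory one. Grin2a to Grin1 rose from 0.286 ± 0.0456 at P8 to 0.621 ± 0.0932 at P14 (SD, n = 5; exact permutation test, p = 0.00794, adjusted p = 0.0132), a log2 difference of 1.12 ± 0.14 (SE) with no overlap. The later steps did not pass one by one, and P70 against P21 passed only without P21 replicate 5 or without P70 replicate 5 (exact permutation test, adjusted p = 0.0414 for each): the P21 libraries averaged 0.715 ± 0.0693, those of P35 0.795 ± 0.113 and those of P70 0.811 ± 0.0690 (SD, n = 5). P70 was above P14 by 0.39 ± 0.11 log2 units (SE, exact permutation test, p = 0.0238, adjusted p = 0.034). This call was lost without any 1 of P14 replicates 1, 2, 4 and 5 or P70 replicates 2, 3 and 4, at 0.34 to 0.40. P35 was above P14 by 0.36 ± 0.13 (SE, exact permutation test, p = 0.0317, adjusted p = 0.0433), lost without any 1 of P14 replicates 1, 2, 4 and 5 or P35 replicates 1, 2 and 3. With 1 library left out the smallest possible p rises to 0.0159. A linear model on the log2 ratios of all 25 libraries called both differences (adjusted p = 0.00527 and 0.00963).

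Grin2b to Grin1 moved the other way. It stood at 2.71, 3.26, 2.74, 3.59 and 2.90 in the P8 libraries and at 1.80, 2.11, 2.42, 1.92 and 1.84 in the P14 libraries, without overlap. The log2 difference was -0.59 ± 0.11 (SE; exact permutation test, p = 0.00794, adjusted p = 0.0132), so Grin1 rose by a larger factor than Grin2b. From P14 to P21 it differed by -0.22 ± 0.09 (SE, exact permutation test, p = 0.0238, adjusted p = 0.034). This call was lost without any 1 of P14 replicates 2, 3, 4 and 5 or P21 replicates 1, 2 and 4. Because the smallest possible p is then 0.0159, a call can be lost without a smaller difference. The difference was -0.247 without P14 replicate 5 and -0.148 without P14 replicate 3. A linear model on the log2 ratios of all 25 libraries called the P14 to P21 difference (adjusted p = 0.0405). At P21 the ratio averaged 1.73 ± 0.114, followed by 1.62 ± 0.173 and 1.63 ± 0.119 at the 2 later ages (SD, n = 5), and no pair among these 3 ages passed. P70 was below P14 by -0.30 ± 0.09 log2 units (SE, exact permutation test, p = 0.00794, adjusted p = 0.0132), without overlap. That call held with any 1 library left out (adjusted p at most 0.0265). P35 against P14 was also called (-0.32 ± 0.11 SE, exact permutation test, adjusted p = 0.034), but was lost without any 1 of P14 replicates 2, 3, 4 and 5 or P35 replicates 1, 2, 4 and 5.

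The sum of the Grin2a and Grin2b transcripts went from 50.5 ± 3.02 FPKM at P8 through 75.9 ± 7.92 to 82.6 ± 6.51 FPKM at P21, and then stood at 73.6 ± 7.60 and 71.9 ± 6.79 FPKM (SD, n = 5). Of the increase of 25.4 FPKM from P8 to P14, 13.4 came from Grin2a and the rest from Grin2b. Of the net increase of 21.4 FPKM from P8 to P70, 19.5 came from Grin2a and 1.88 from Grin2b. Relative to Grin1, the sum averaged 3.33 ± 0.411, 2.64 ± 0.340, 2.44 ± 0.181, 2.41 ± 0.283 and 2.44 ± 0.166 over the ages in turn (SD, n = 5). These sums leave out any other GluN2 transcripts, are a description and were not tested.

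Within an age, the GluN2 transcripts tended to be high or low in the same libraries. After each age mean was subtracted, Pearson's r between the deviations of Grin2a and Grin2b was 0.767 over 25 libraries, with the same sign in 20 of them. It was 0.557 for Grin1 and Grin2b and 0.373 for Grin1 and Grin2a. Each pair of values comes from the same library and so shares its scaling and depth, and these correlations are given as a description only. P35 replicate 4 was low for both GluN2 transcripts, at 19.6 and 41.8 FPKM, while its Grin1, at 30.8 FPKM, was within the range of the others of its age. P70 replicate 3 was the lowest of its age for all 3 genes, and P14 replicate 3 for Grin1 alone.

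**Figure D5:**
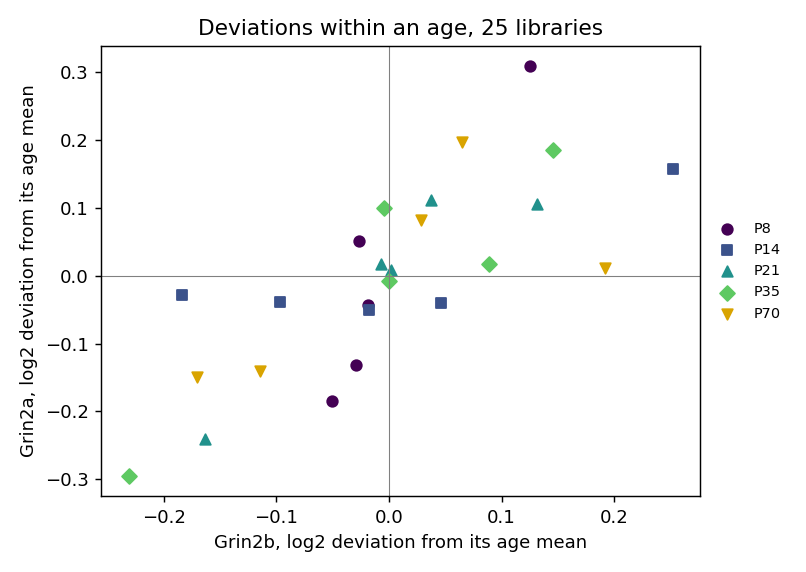
Deviation of each library from its age mean, in log2(FPKM + 0.5), for Grin2b (horizontal axis) and Grin2a (vertical axis), with 1 point per library and 1 symbol per age. Most points lie in the lower left and upper right parts, and 20 of 25 have the same sign for both genes.

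Across all 25 libraries Grin1 and Grin2a followed similar courses, with r = 0.933, while Grin2b had r = 0.571 with Grin1 and 0.441 with Grin2a. Many other gene IDs were closer to either gene. By r among the tested gene IDs, Grin2a ranked 81 for Grin1, and Grin1 ranked 165 for Grin2a. The gene ID most like Grin2a was ENSRNOG00000024832, with r = 0.993. It averaged 3.64 ± 0.731, 17.7 ± 1.79, 24.5 ± 0.683, 24.0 ± 1.80 and 22.4 ± 2.33 FPKM from P8 to P70 (SD, n = 5). The gene ID most like Grin1 was ENSRNOG00000016326, with r = 0.983, at 15.1 ± 4.50, 42.6 ± 7.71, 55.5 ± 6.49, 45.8 ± 4.69 and 41.8 ± 5.56 FPKM at the 5 ages in turn (SD, n = 5). Both had their highest mean at P21, as Grin1 did, although no change of Grin1 after P14 passed the test with the values as deposited. The closest course to Grin2b was less close, with r = 0.905. The table gives no names for these IDs, and the correlations describe libraries that differ mainly by age.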

How the data were processed

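The authors deposited FPKM values, which are relative to all mapped fragments of a library, in a single table of Ensembl gene IDs by libraries. Single-end reads of 50 bases from rRNA-depleted RNA were aligned to rn4 using GSNAP, per the labels' protocols. The submitters' processing notes name BWA 0.6.1, bedtools, Cufflinks and rn4 without roles. The sources used here do not give the annotation release, strand setting or treatment of multi-mapping reads.

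Columns were matched by sample title and grouped by labelled age; replicate numbers only name libraries, and 0 pairs of columns were identical. limma 3.58.1 (R 4.3.3) was fitted to log2(FPKM + 0.5) of 14128 gene IDs in all 25 libraries (20 residual degrees of freedom, trend with mean level, Benjamini-Hochberg over all gene IDs, calls at adjusted p under 0.05). A change on this scale understates that of low genes. Ratios were compared by exact two-sided permutation tests (scipy 1.17.1). The fit was tested on simulated data with independent noise, which held no effects shared by libraries of a title number. Alternatives covered pseudocount, filter, scaling, block, the libraries fitted and each library left out. The 3 genes are named by the selection rule. Gene lists could not be matched to IDs; for likeness, the gene ID with the highest r per gene was taken, with at most 2 rising IDs printed. The genes and analyses were chosen with earlier results of these data known.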

Additional observations from a re-analysis of the deposited data

Results flagged for a closer look

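Among 30 sets of 5 values (3 genes and 3 ratios at 5 ages), 2 held a library set well apart from the remaining 4; chance gives about 1 in 20 groups. Grin2a in P14 replicate 2 was at 19.9 FPKM, against 17.1 to 17.4 FPKM in the other P14 libraries. These are values as deposited, and the median-of-ratios scaling divides P14 replicate 2 by 1.18, the largest factor of the 25 libraries. This library was also the highest of its age for Grin1 and Grin2b, and without it the Grin2a rise from P8 to P14 was called as before. Grin2b in P8 replicate 3 was at 50.3 FPKM, against 44.5 to 45.5 FPKM in the other P8 libraries, and the same library was the highest of its age for Grin1 and Grin2a.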

How the results depend on the processing

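No paired analysis was possible because the labels give no replicate numbers shared between ages. Of the alternatives to the limma changes, 610 of 630 left the side of the threshold as it was, 15 lost a call and 5 gained one; of those to the ratio tests, 407 of 450 left it, 41 lost a call and 2 gained one. No called change turned its sign in any alternative run. In the 4 steps and P8 to P70, the rise of Grin1 from P14 to P21 gained a call after quantile normalization (0.342) and median-of-ratios scaling (0.328). With FPKM totals made equal, calls were lost for Grin2a from P14 to P21 (0.111) and Grin2b from P8 to P14 (0.584); the latter was also lost with the title-number block (0.295). Without 1 library, the Grin2b to Grin1 difference from P14 to P21 ran from -0.255 to -0.148. Leaving out P14 replicates 2 and 5 and P21 replicate 5, the libraries least correlated with their age, was chosen after the data were seen. It ended the calls of the Grin2a to Grin2b ratio between P8 and P14 (1.69) and between P14 and P21 (0.427), of Grin2a to Grin1 from P8 to P14 (1.12) and of Grin2b to Grin1 in both steps (-0.574 and -0.251). These losses follow from the numbers of libraries left: the smallest p is 0.0357 for 3 against 5 (at best 0.0595 after adjustment here) and 0.0571 for 3 against 4. Whole reads were not recovered for these genes, so what depth limits is unknown; without the 2 shallowest libraries, P21 replicate 5 and P70 replicate 2, also chosen afterwards, the calls for the changes in level stayed as they were, and 1 ratio call was lost, Grin2a to Grin1 from P14 to P70 (0.392).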
